A study of Homo sapiens with 12 samples.

Results

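The genes described here are 38 members of the lysosome and of the autophagy machinery, measured as messenger RNA in AC16 cells exposed to doxorubicin for different lengths of time. They were taken by gene symbol from a list of 7 proteases, 5 glycosidases, 4 genes of lipid handling, 5 of the lysosomal membrane, 4 of the proton pump, 2 transcription factors and 11 of autophagosome formation. All 38 were found among the 60607 gene identifiers of the count table, and all 38 passed the filter on low counts that left 17320 genes for testing.

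Lysosomes are acidic organelles in which hydrolases break down proteins, glycans and lipids delivered from outside the cell or from within it. A proton pump of the vacuolar type keeps the interior acidic, and membrane proteins such as LAMP1 line it. Autophagy wraps cytoplasm in a double membrane, the autophagosome, which then fuses with the lysosome. Its core proteins include a starting kinase (ULK1) and a lipid kinase scaffold (BECN1). A conjugation machinery (ATG7, ATG5, ATG12, ATG16L1) attaches LC3 and GABARAP proteins to the membrane. TFEB and TFE3 are transcription factors that leave the cytoplasm for the nucleus when the lysosome or nutrient signalling is disturbed and switch on genes of both systems. In heart muscle, doxorubicin is known for damage to DNA and mitochondria and for disturbing the flow of material through lysosomes.

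AC16 is a human line made by fusing cells of the adult heart ventricle with transformed fibroblasts. Its genotype is given as WT, and its cell type is given as cardiomyocytes. There were 12 libraries in 4 groups of 3: controls in DMEM without the drug, and cells given 0.1 µM doxorubicin, an anthracycline that traps topoisomerase on broken DNA, for 2, 4 or 6 days. The medium for all cells was DMEM/F12 with fetal bovine serum and antibiotics. The titles write the exposures as 48, 96 and 112 hours and also put every library at day 6. The longest exposure is therefore written in 2 ways, as 112 hours and as 6 days, and is called 6 days here. The study asked how the response of these cells changes with the length of exposure. One control group served all 3 exposures, so the comparisons with the control share its libraries. Whether repeats were grown apart is not stated, and p-values therefore reflect library-to-library spread that may be purely technical.

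Totals were 14835743 to 21226441 counts per library. Levels are given as CPM, counts scaled to a common library total after TMM normalisation, as mean ± SD over 3 libraries or library by library in the order of replicates 1, 2 and 3, and log2 fold changes are given ± SE. Defining markers of heart muscle were close to absent: 13 summed to 6.93 to 9.58 CPM per library, 4 of them passed the filter, and MYL2 was at 0 in all 12 libraries. Most of that sum was GATA4, at 5.70 to 7.06 CPM in the group means and not called. ACTN2 rose at each exposure, from 0.0658 CPM in the controls to 0.983, 0.455 and 0.767. NPPA fell at 2 and 6 days, from 0.645 CPM to 0.149 and 0.114. The sum of 10 fibroblast markers was 7816 to 8527 CPM in the controls, 11781 to 12109 at 2 days, 10132 to 10657 at 4 days and 8702 to 9149 at 6 days. That sum is mostly collagens and VIM, and the single markers moved both ways: 7 of the 10 rose and 1 fell at 2 days, 3 rose and 5 fell at 4 days, and 2 rose and 6 fell at 6 days. VIM went from 2133 CPM in the controls to 4707 at 4 days, while LUM went from 213 to 66.6 and DCN from 126 to 45.7. The sum of 5 smooth muscle markers was 140 to 164 CPM in the controls, 291 to 325 at 2 days, 223 to 234 at 4 days and 194 to 212 at 6 days. Within it ACTA2, smooth muscle actin, rose from 10.1 to 83.4, 94.7 and 107 CPM, whereas CNN1, TAGLN and DES fell at 6 days and MYH11 did not exceed 0.249 CPM in any group mean. The sum of 5 endothelial markers was 19.9 to 27.2 CPM over all libraries. TEK made up most of it, at 16.4 to 22.9 CPM in the group means, and the scarcer markers moved both ways. Of the 4 that passed the filter, 0 were called at 2 days, 2 rose and 2 fell at 4 days, and 1 rose and 2 fell at 6 days. PECAM1 rose at 6 days (log2 fold change 1.19 ± 0.27), while KDR (-2.03 ± 0.34) and VWF (-1.65 ± 0.45) fell. The part of these markers in the members' changes was not tested. Control replicate 2 and 2-day replicate 3 stood apart in the share of mitochondrial counts, with 8.26% against 6.01% and 6.75% in the other controls, and 5.51% against 7.62% and 7.74% in the other 2-day libraries. Because the cultures were measured in bulk, a lower level cannot be told apart as less RNA per cell or as fewer cells of a kind.

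The summed level of the 38 genes was 3782 ± 155 CPM in the controls, 4243 ± 40.7 at 2 days, 4363 ± 62.7 at 4 days and 4233 ± 57.3 at 6 days (SD, n = 3). Most members moved by less than 2-fold. At 2 days 16 members rose and 9 fell, at 4 days 17 rose and 4 fell, and at 6 days 14 rose and 8 fell (edgeR's quasi-likelihood test, Benjamini-Hochberg adjusted p under 0.05 over 17320 genes). Changes were common in the whole transcriptome too: 47.2%, 36.5% and 43.7% of all tested genes were called at 2, 4 and 6 days. Of all tested genes 23.8% rose and 23.4% fell at 2 days, 18.8% rose and 17.7% fell at 4 days, and 22% rose and 21.7% fell at 6 days. Against that background, the share of members that rose was 42.1% at 2 days, 44.7% at 4 days and 36.8% at 6 days. The share that fell was 23.7%, 10.5% and 21.1%, which at 2 and 6 days lay close to the share of all genes. The median log2 fold change of the members was 0.17, 0.12 and 0.08 at the 3 exposures, beside -0.01, -0.003 and -0.01 for all tested genes.

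**Figure D1:**
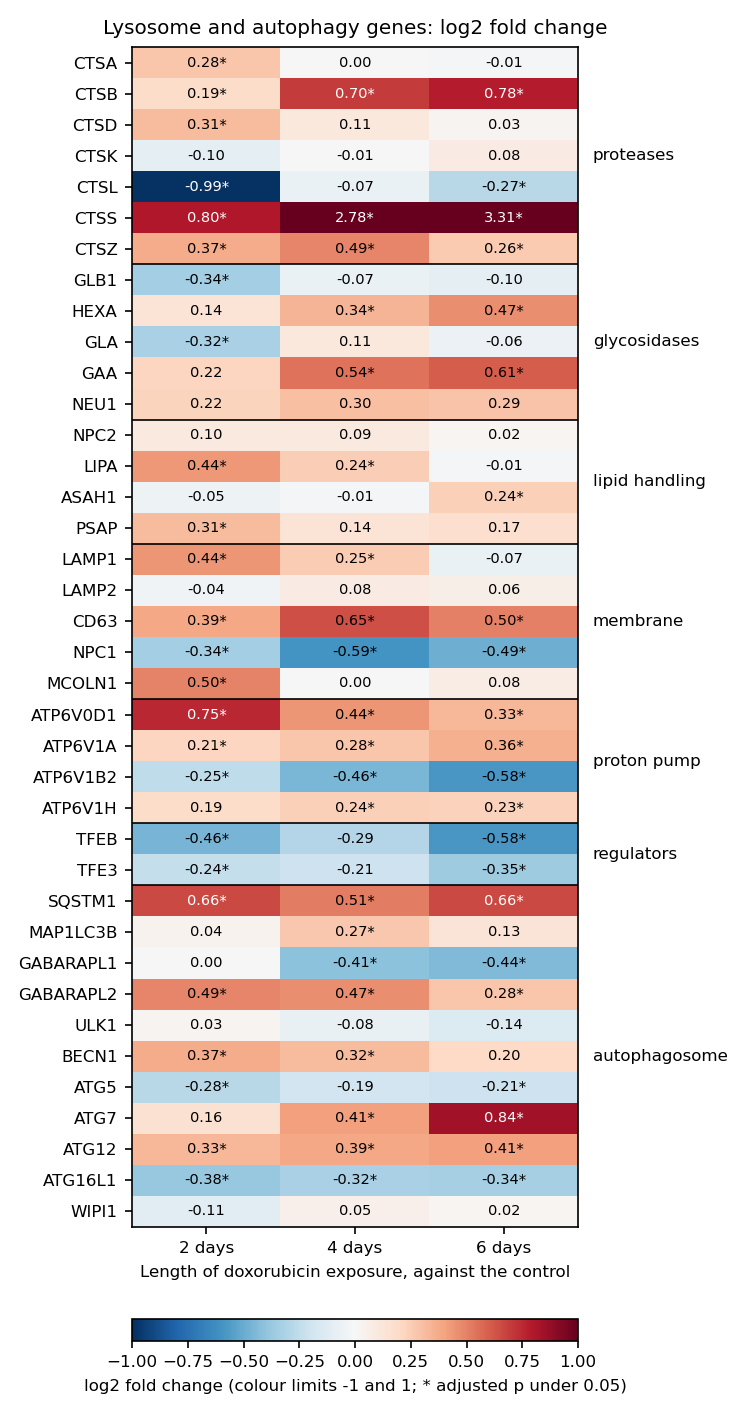
Log2 fold change of each of the 38 genes (rows, by role) at 2, 4 and 6 days of doxorubicin against the control (columns), with an asterisk at an adjusted p under 0.05. CTSS at 4 and 6 days (2.78 and 3.31) lies beyond the colour limits of -1 and 1, and each role holds genes of both colours or genes without a call.

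In the spread of their changes the members were somewhat narrower than the transcriptome. Their median absolute log2 fold change was 0.29, 0.27 and 0.27 at the 3 exposures, against 0.39, 0.30 and 0.35 for all tested genes. Neither this spread nor the shares of calls were matched on abundance. Tested genes include some below 1 CPM, such as NPPA, whereas only CTSS and TFEB among the members had group means under 10 CPM. Changes of at least 2-fold that passed the test made up 13.6%, 9.1% and 12.3% of all tested genes, while among the members only CTSS reached that size, at 4 and 6 days. Groups without any overlap between exposed and control libraries can be counted in the same way. At 2 days 14 members lay wholly above the controls and 9 below, beside 26.1% and 26.1% of all tested genes (52.2% together). At 4 days 16 lay above and 6 below, beside 22.8% and 21.8% (44.6% together), and at 6 days 14 lay above and 8 below, beside 25.8% and 25.1% (50.9% together). Without the 2 libraries that stood apart in mitochondrial share, 16 members rose and 5 fell at 2 days, 17 rose and 4 fell at 4 days, and 16 rose and 7 fell at 6 days. Of all genes in that fit 4140 rose and 3810 fell at 2 days, 3351 and 3176 at 4 days, and 3741 and 3682 at 6 days. Scaling by library totals alone shifted the median of all genes at 2 days from -0.01 to -0.14, lowered the share of higher genes among those called from 50.4% to 37.3%, and gave 11 members that rose and 10 that fell.

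**Figure D2:**
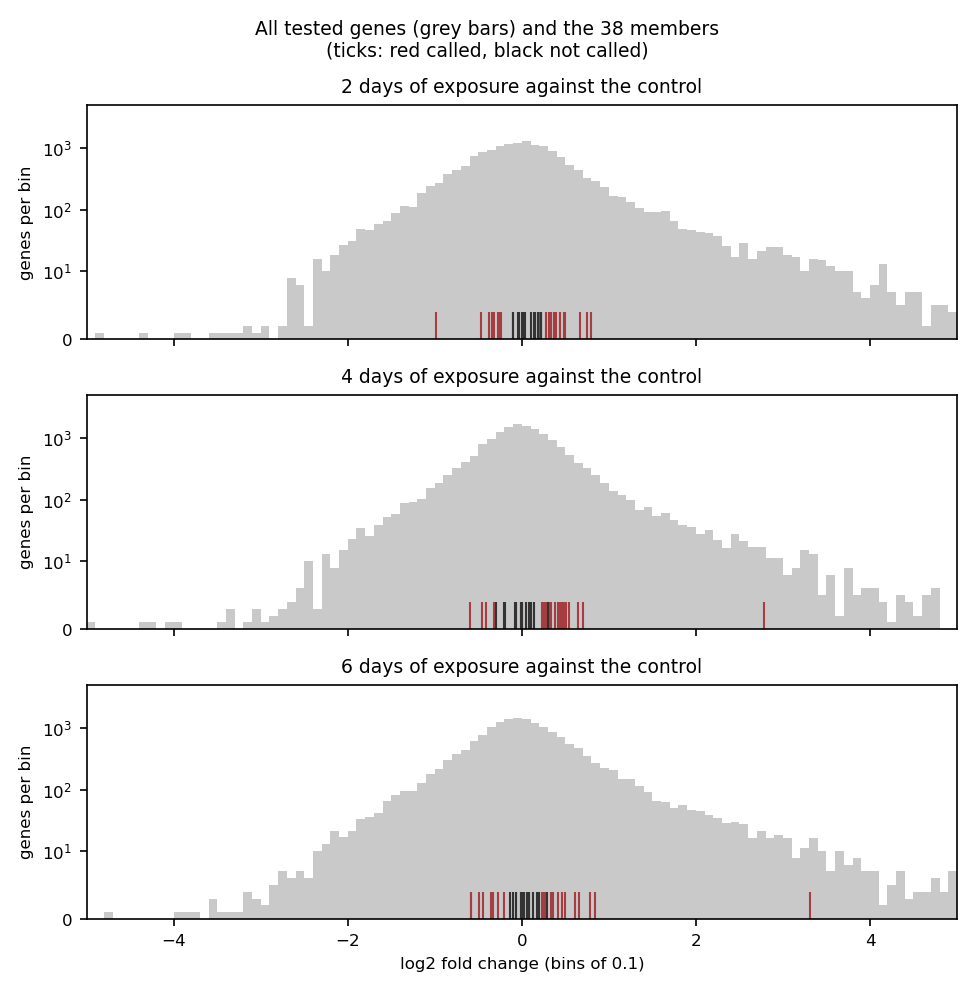
Number of tested genes in bins of log2 fold change against the control (grey bars, vertical axis linear up to 10 and logarithmic above it) at 2, 4 and 6 days, with a tick for each of the 38 members (red where the adjusted p is under 0.05). All members lie between -0.99 and 0.84 except CTSS at 4 and 6 days, while the bars reach much further on both sides.

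The transcription factors were lower, not higher, in the exposed cells. TFEB (chr6:41683978-41736259, minus strand, GRCh38) was at 6.87, 8.54 and 6.94 CPM in the controls, 5.64, 6.16 and 4.38 at 2 days, 6.28, 6.00 and 5.93 at 4 days and 4.39, 4.25 and 6.16 at 6 days. None of the 9 exposed libraries reached the lowest control. The log2 fold change was -0.46 ± 0.17 at 2 days (adjusted p = 0.03), -0.29 ± 0.17 at 4 days (adjusted p = 0.19) and -0.58 ± 0.17 at 6 days (adjusted p = 0.00828), so the test was passed at 2 and 6 days. Its close relative TFE3 (chrX:49028726-49043486, minus strand) was the more abundant per length in the controls, at 17.3 ± 2.91 against 1.32 ± 0.167 RPKM (CPM divided by the exon length in kilobases). TFE3 was at 67.5, 88.5 and 66.3 CPM in the controls and at 66.4, 62.2 and 59.3 at 2 days. It was at 63.6, 61.7 and 66.8 CPM at 4 days and at 58.0, 56.9 and 59.0 at 6 days. Control replicate 2 was well above the other controls, and the 2- and 4-day libraries overlapped the control range, whereas the 6-day libraries all lay below it. TFE3 fell by 0.24 ± 0.10 at 2 days (adjusted p = 0.041) and by 0.35 ± 0.10 at 6 days (adjusted p = 0.00411), and was at -0.21 ± 0.10 at 4 days (adjusted p = 0.0905).

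These calls were among the less stable ones. The TFE3 call at 2 days was kept under 7 of 20 alternatives; it was lost without control replicate 2, where the log2 fold change was -0.10 (adjusted p = 0.352), and without any of 7 others, namely each 2-day library, 4-day replicates 1 and 2 and 6-day replicates 1 and 2. Without control replicate 2 the 6-day change of TFE3 was -0.21 (adjusted p = 0.0468). The TFEB call at 2 days was lost without control replicate 2 (-0.36, adjusted p = 0.115), 2-day replicate 1 (-0.49, adjusted p = 0.0566) or 2-day replicate 3 (-0.34, adjusted p = 0.154), and that at 6 days without 6-day replicate 2 (-0.48, adjusted p = 0.0505). DESeq2 called neither gene at 2 days (TFEB -0.46, adjusted p = 0.0672; TFE3 -0.23, adjusted p = 0.0684), and without the 2 libraries that stood apart in mitochondrial share TFEB was at -0.23 (adjusted p = 0.368) and TFE3 at -0.06 (adjusted p = 0.649).

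Messenger RNA says nothing of where the factors are in the cell, but the sequence they are known to bind can be looked for in the members' promoters. The palindrome TCACGTGA is the core of the element through which TFEB and its relatives act on lysosomal genes, and other factors of the same structural class bind the CACGTG inside it. RefSeq promoter windows (GRCh38.p14, 250 bases before to 50 after the annotated start) were at hand for 28 of the 38 members. The 10 without a window, in which no motif was searched, were CTSB, CTSK, CTSS, HEXA, ASAH1, PSAP, LAMP2, ATP6V1A, ATP6V1B2 and ATP6V1H. TCACGTGA, which reads the same on both strands, was in 5 of these 28 windows (17.9%), in 8 of 106 windows of other lysosome and autophagy genes (7.55%) and in 283 of 27305 windows of all genes (1.04%). The 5 are shown here because they are the members that carry it, as stretches read in the sense of the gene with the element in capitals.
CTSA: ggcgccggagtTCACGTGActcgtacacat
LAMP1: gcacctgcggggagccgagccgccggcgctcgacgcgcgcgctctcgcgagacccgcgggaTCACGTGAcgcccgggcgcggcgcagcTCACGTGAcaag
GAA: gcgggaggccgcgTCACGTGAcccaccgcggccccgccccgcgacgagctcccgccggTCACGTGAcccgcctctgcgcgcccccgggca
ATP6V0D1: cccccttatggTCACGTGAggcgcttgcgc
MCOLN1: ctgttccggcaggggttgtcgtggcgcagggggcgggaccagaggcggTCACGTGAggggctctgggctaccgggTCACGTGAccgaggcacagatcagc
The stretches lie at chr20:45891298-45891327 (plus strand), chr13:113297149-113297248 (plus), chr17:80101491-80101580 (plus), chr16:67481199-67481228 (minus) and chr19:7522534-7522633 (plus). In the GENCODE 29 annotation those of CTSA and ATP6V0D1 fall wholly in an exon of a longer transcript of the same gene, and those of LAMP1 and MCOLN1 lie outside the gene except for 8 bases of its first exon. That of GAA has 25 bases in an exon and 65 before the gene. LAMP1, GAA and MCOLN1 carry the element in 2 copies within the window.

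**Figure D3:**
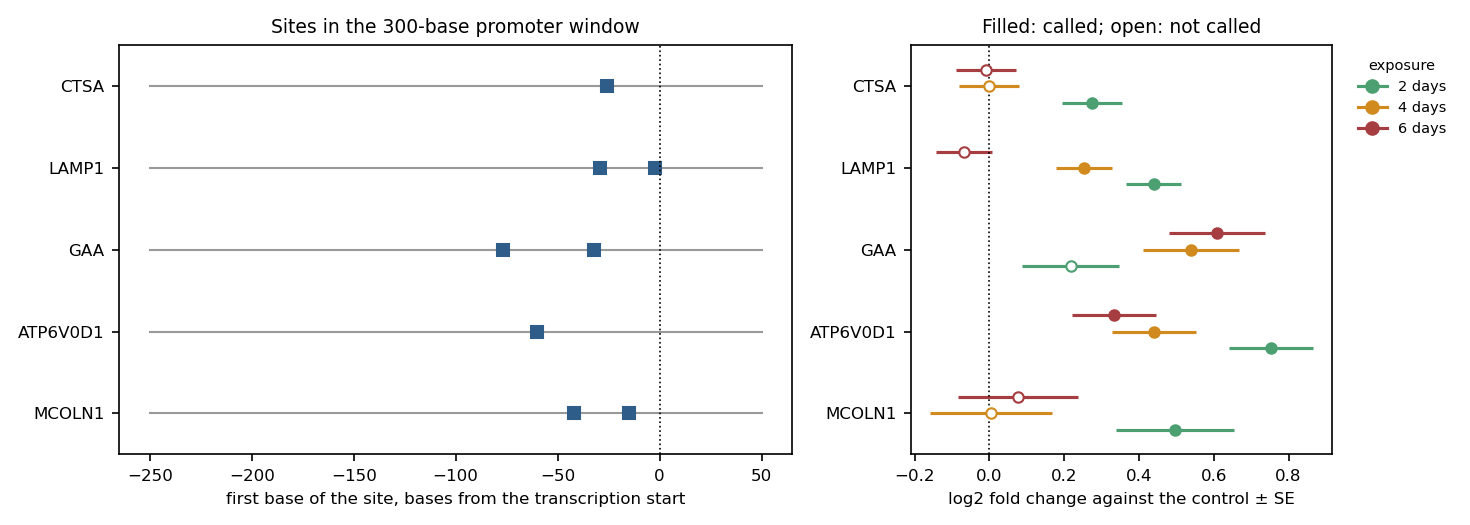
Left, position of each TCACGTGA element (squares) in the 300-base promoter window of the 5 members that hold it, in bases from the transcription start. Right, log2 fold change ± SE of the same genes against the control at 2, 4 and 6 days, filled where the adjusted p is under 0.05: 4 of 5 were called higher at 2 days, 3 at 4 days and 2 at 6 days, and none lower.

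Of these 5 genes 4 rose at 2 days, 3 at 4 days and 2 at 6 days, and 0 fell. Among the 23 members whose window lacks the element, 8 rose and 8 fell at 2 days, 9 rose and 3 fell at 4 days, and 6 rose and 7 fell at 6 days. These counts rest on few genes, and no test compared them. The calls of CTSA and MCOLN1 at 2 days, LAMP1 at 4 days and ATP6V0D1 at 6 days were each lost under some alternatives. Of the 8 other lysosome and autophagy genes that hold the element, 3 rose and 2 fell at 2 days, 3 rose and 2 fell at 4 days, and 3 rose and 1 fell at 6 days. That is 37.5% risen at each exposure, beside 42.3%, 36.1% and 39.2% of the 97 tested without it. For all 212 tested genes with the element, 26.9% rose and 24.5% fell at 2 days, 15.6% rose and 24.1% fell at 4 days, and 19.3% rose and 27.4% fell at 6 days. Of the 11515 tested genes whose window lacks it, 26.3% rose and 25.7% fell at 2 days. At 4 days 20.7% of these rose and 19.4% fell, and at 6 days 23.5% rose and 24.2% fell. Other motifs searched on both strands were CACGTG, which is the inner part of the same element, so that every TCACGTGA is counted again, and which was in 8 windows of members (28.6%, against 7.43% of all windows), and TGACNNNGC, the type of element bound by NRF2, in 9 (32.1% against 13.6%). The motif TTCNNNGAA was in 2 (7.14% against 7.88%), and the interferon-stimulated response element was in 0 of 28 (3.65% of all windows). The members' windows are richer in G and C, with a median of 69% against 58.3% over all windows, and a match is only a match of letters.

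Among the proteases, cathepsins B and S rose at each exposure, cathepsin L fell most at 2 days, and cathepsin K was not called. CTSS (chr1:150730196-150765957, minus strand) encodes cathepsin S, a cysteine protease best known from antigen-presenting cells. It was at 1.08, 1.84 and 1.32 CPM in the controls, 2.52, 2.26 and 2.52 at 2 days, 8.71, 10.3 and 9.99 at 4 days and 13.2, 16.3 and 12.3 at 6 days. No group overlapped the next. The log2 fold changes were 0.80 ± 0.23 (adjusted p = 0.00689), 2.78 ± 0.20 (adjusted p = 3.61e-11) and 3.31 ± 0.19 (adjusted p = 4.8e-13), and the 2-day call was lost without control replicate 1 (0.62, adjusted p = 0.0562). Per length it was the scarcest member in the controls, at 0.334 ± 0.0918 RPKM, and reached 3.30 ± 0.500 at 6 days.

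Markers of macrophages, a cell type that expresses CTSS, were read beside it. The sum of 10 such markers was 5.95 to 8.67 CPM in the controls, 8.53 to 9.72 at 2 days, 12.4 to 16.4 at 4 days and 14.3 to 16.5 at 6 days. Of the 10, 5 passed the filter, and most of the increase was in CD68, a lysosomal membrane glycoprotein that other cells also make, which went from 2.51 CPM in the controls to 7.72 at 6 days. PTPRC was at 2.39 CPM in the controls and 3.55 at 6 days, CSF1R at 1.00 and 1.75, and FCER1G at 0.320 and 0.672. These 3 were not called against the controls at any exposure, although PTPRC and CSF1R lay wholly above the controls at 6 days. At 4 against 2 days CD68 (1.15 ± 0.22, adjusted p = 0.00021), PTPRC (0.64 ± 0.24, adjusted p = 0.0428) and FCER1G (2.40 ± 0.74, adjusted p = 0.0139) were called higher. In that comparison the libraries of PTPRC and FCER1G overlapped, and CSF1R and CD14 were not called. CD14 fell from 1.43 to 0.275 CPM. TYROBP was at 0 in all 12 libraries, and AIF1, CD163, ITGAM and LYZ were at 0 in all controls and at no more than 1.01 CPM in any exposed library. The part of these markers in the CTSS rise was not tested.

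CTSB, cathepsin B, an abundant cysteine protease encoded on chromosome 8, was at 251, 283 and 240.0 CPM in the controls and 306, 288 and 286 at 2 days. It was at 419.9, 412 and 426 CPM at 4 days and 449, 429 and 453 at 6 days. The 4- and 6-day libraries were all far above the controls, while the 2-day libraries only just cleared the highest control. The log2 fold change was 0.19 ± 0.07 at 2 days (adjusted p = 0.0434), 0.70 ± 0.07 at 4 days (adjusted p = 5.09e-08) and 0.78 ± 0.07 at 6 days (adjusted p = 5.51e-09). Only the 2-day call was unstable: it was kept under 7 of 20 alternatives and was lost without any 1 of 9 libraries (all but control replicate 2, 2-day replicate 2 and 4-day replicate 2), with changes of 0.14 to 0.20 and adjusted p of 0.0514 to 0.212.

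CTSL (chr9:87725519-87731393, plus strand), cathepsin L, the cysteine protease that matures many other lysosomal enzymes, was at 83.6, 82.6 and 72.9 CPM in the controls and at 37.9, 42.1 and 40.5 at 2 days. It was at 80.6, 77.5 and 70.3 CPM at 4 days and at 69.5, 65.2 and 63.1 at 6 days. The 2-day libraries were below all 9 others, the 4-day libraries overlapped the controls, and the 6-day libraries lay just below them. CTSL fell by 0.99 ± 0.09 at 2 days (adjusted p = 9.91e-10) and by 0.27 ± 0.08 at 6 days (adjusted p = 0.0105), and was at -0.07 ± 0.08 at 4 days (adjusted p = 0.579). No other member fell as far at any exposure.

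The other proteases changed less. CTSZ, a carboxypeptidase, was at 101 ± 8.55 CPM in the controls and rose to 130.3 ± 14.7 at 2 days, 142 ± 8.63 at 4 days and 121 ± 10.6 at 6 days, with log2 changes of 0.37, 0.49 and 0.26. CTSA, the serine carboxypeptidase that protects GLB1 and NEU1 in one complex, rose at 2 days only, from 202 ± 21.4 to 244 ± 11.7 CPM (0.28 ± 0.08, adjusted p = 0.00656), and was at 202 ± 9.33 and 200.4 ± 8.67 afterwards; that call was lost with library totals alone (0.15, adjusted p = 0.121). CTSD, the main aspartic protease, also passed the test at 2 days only (0.31 ± 0.12, adjusted p = 0.0379), at 41.7 ± 5.07 against 33.6 ± 5.73 CPM. CTSK, the collagen-degrading protease of bone, lay between 10.0 and 11.3 CPM in all 4 group means. The CTSD call was lost without control replicate 1, control replicate 3, 2-day replicate 1 or 2-day replicate 2 (changes of 0.23 to 0.28, adjusted p of 0.108 to 0.179). The 6-day CTSZ call was lost without control replicate 1, control replicate 3 or 6-day replicate 1 (0.19 to 0.23, adjusted p of 0.0883 to 0.149).

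**Figure D4:**
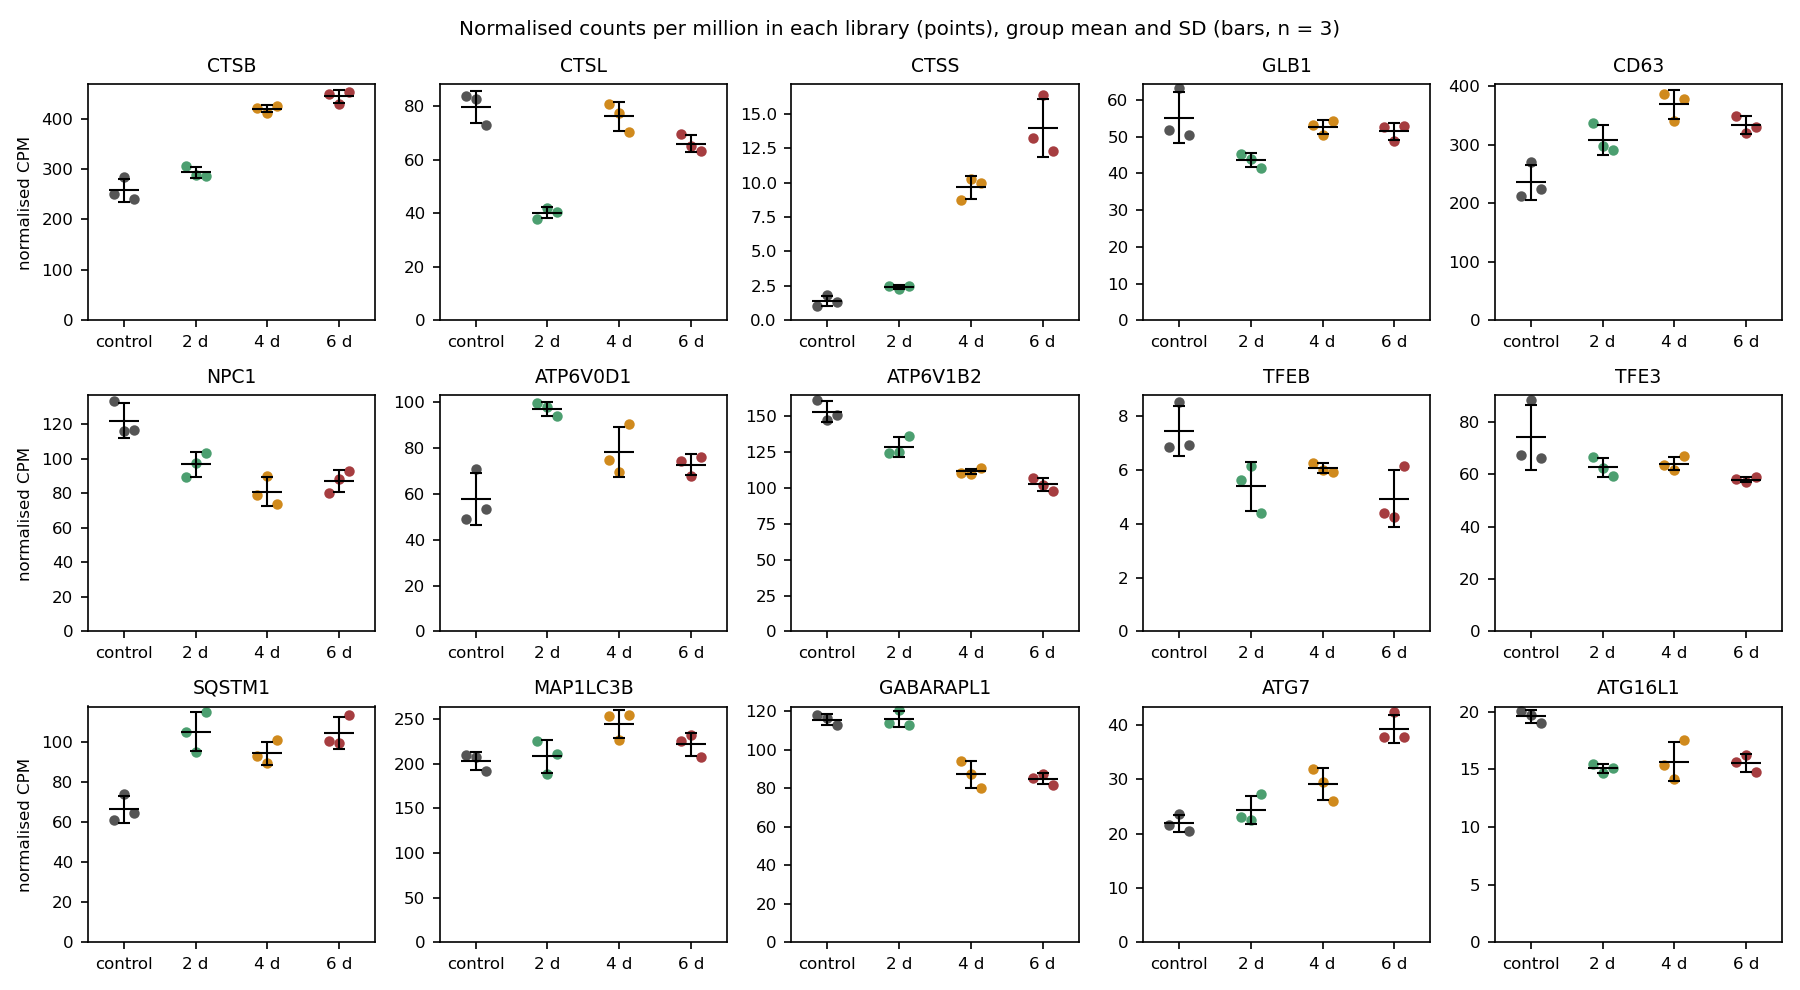
CPM in each library (points) with group mean and SD (bars, n = 3) for the 15 members given library by library, in controls and after 2, 4 and 6 days of doxorubicin; every vertical axis starts at 0. CTSB and CTSS increase from group to group, CTSL is low at 2 days, ATP6V1B2 decreases from group to group, and ATG7 is highest at 6 days.

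The glycosidases, which cut sugars from glycolipids, glycoproteins and glycogen, changed in both directions. GLB1 (chr3:32996608-33097230, minus strand) encodes the beta-galactosidase whose activity is widely stained as a sign of senescent cells. It was at 51.7, 63.1 and 50.5 CPM in the controls and 45.3, 43.9 and 41.6 at 2 days. It was at 53.2, 50.5 and 54.1 CPM at 4 days and 52.5, 48.8 and 53.0 at 6 days. Every 2-day library lay below every control, and the later libraries overlapped the controls. GLB1 fell by 0.34 ± 0.09 at 2 days (adjusted p = 0.00364) and was at -0.07 ± 0.09 at 4 days (adjusted p = 0.611) and -0.10 ± 0.09 at 6 days (adjusted p = 0.404). Without both libraries that stood apart in mitochondrial share, GLB1 was at -0.20 at 2 days (adjusted p = 0.0964), with no call.

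GLA, alpha-galactosidase A, fell by 0.32 ± 0.10 at 2 days (30.8 ± 1.04 against 38.6 ± 4.47 CPM, adjusted p = 0.00743) and was at 0.11 and -0.06 later, without a call; its 2-day call was lost without the same 2 libraries (-0.21, adjusted p = 0.108). GAA, the enzyme that degrades glycogen in the lysosome, was at 46.4 ± 9.82 CPM in the controls and 54.0 ± 7.30 at 2 days. It rose to 67.4 ± 2.96 at 4 days (0.54 ± 0.13, adjusted p = 0.00227) and 70.6 ± 10.2 at 6 days (0.61 ± 0.13, adjusted p = 0.000609). HEXA, a subunit of the hexosaminidase that degrades gangliosides, was at 58.2 ± 3.93 CPM in the controls and rose to 73.5 ± 5.75 and 80.3 ± 3.97 at 4 and 6 days (0.34 and 0.47). NEU1, the sialidase, was at 16.7 ± 2.41 CPM in the controls and 19.4 to 20.6 in the exposed groups, without a call at any exposure (adjusted p of 0.0591 to 0.152).

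In lipid handling, LIPA, the acid lipase that releases cholesterol from its esters, rose from 72.8 ± 4.75 to 98.5 ± 6.05 CPM at 2 days (0.44 ± 0.08, adjusted p = 0.000119) and to 86.2 ± 3.85 at 4 days (0.24 ± 0.08, adjusted p = 0.0235), and stood at 72.4 ± 5.54 at 6 days. PSAP, the precursor of the saposins that present lipids to hydrolases, rose at 2 days from 441 ± 33.0 to 548 ± 19.8 CPM (0.31 ± 0.07, adjusted p = 0.00102). Per length it was the most abundant of the 38 in the controls, at 136 ± 10.2 RPKM. ASAH1, acid ceramidase, passed the test at 6 days only (42.9 ± 4.34 against 36.3 ± 2.32 CPM, 0.24 ± 0.09, adjusted p = 0.039). NPC2, which carries cholesterol inside the lysosome, had group means of 41.3 to 44.2 CPM and no call. The ASAH1 call was lost without control replicate 1 or 2 or 6-day replicate 1 or 2, with changes of 0.16 to 0.26 and adjusted p of 0.0546 to 0.236. The 4-day LIPA call was lost without control replicate 1 or 2 or 4-day replicate 3 (0.21 to 0.23, adjusted p of 0.0629 to 0.0975).

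Of the membrane proteins, CD63 rose and NPC1 fell at each exposure, LAMP1 rose at the shorter ones, and LAMP2 was not called. CD63 (chr12:55725323-55729707, minus strand), a tetraspanin of lysosomes and secreted vesicles, was at 213, 270.0 and 224 CPM in the controls and 338, 297 and 291 at 2 days. It was at 387, 341 and 378 CPM at 4 days and 349, 319.9 and 330.2 at 6 days. All 9 exposed libraries were above the highest control. The log2 fold changes were 0.39 ± 0.09 (adjusted p = 0.000767), 0.65 ± 0.09 (adjusted p = 2.5e-06) and 0.50 ± 0.09 (adjusted p = 5.71e-05), and all were called under each of the 20 alternatives.

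NPC1 (chr18:23506184-23586898, minus strand), which moves cholesterol out of the lysosome, was at 134, 116 and 117 CPM in the controls and 89.2, 97.5 and 103 at 2 days. It was at 78.9, 90.1 and 73.6 CPM at 4 days and 80.0, 88.2 and 93.0 at 6 days. All 9 exposed libraries were below the lowest control. NPC1 fell by 0.34 ± 0.09 (adjusted p = 0.00329), 0.59 ± 0.09 (adjusted p = 1.15e-05) and 0.49 ± 0.09 (adjusted p = 0.000101) at 2, 4 and 6 days, also under each of the 20 alternatives.

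LAMP1, the most used marker of the lysosomal membrane, rose from 237 ± 18.3 to 321 ± 12.6 CPM at 2 days (0.44 ± 0.07, adjusted p = 2.58e-05) and to 282 ± 9.51 at 4 days (0.25 ± 0.07, adjusted p = 0.00896). At 6 days it was at 226 ± 4.56 CPM, with no call. LAMP2, its partner that is also needed for fusion with autophagosomes, had group means of 373 to 403 CPM, and its log2 fold changes of -0.04 to 0.08 did not pass the test. MCOLN1, the calcium channel of the lysosome and a known target of TFEB, rose at 2 days only, from 12.9 ± 2.59 to 18.2 ± 2.18 CPM (0.50 ± 0.16, adjusted p = 0.0127). The 4-day LAMP1 call was lost without control replicate 3 (0.21, adjusted p = 0.0661), and the 2-day MCOLN1 call without control replicate 1 (0.34, adjusted p = 0.0999) or 2-day replicate 2 (0.44, adjusted p = 0.0514).

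Subunits of the proton pump changed in opposite directions within one complex. ATP6V0D1 (chr16:67438014-67481237, minus strand), part of the stalk that joins the membrane sector to the rest, was at 49.0, 70.8 and 53.6 CPM in the controls and 99.8, 98.1 and 93.9 at 2 days. It was at 74.7, 69.4 and 90.7 CPM at 4 days and 74.3, 67.7 and 76.3 at 6 days. The 2-day libraries were far above the controls, whereas at 4 and 6 days one library each lay below control replicate 2. The log2 fold changes were 0.75 ± 0.11 (adjusted p = 6.72e-06), 0.44 ± 0.11 (adjusted p = 0.0035) and 0.33 ± 0.11 (adjusted p = 0.0192). The 6-day call was lost without control replicate 1 (0.22, adjusted p = 0.128), control replicate 3 (0.28, adjusted p = 0.0891), 6-day replicate 1 (0.32, adjusted p = 0.0588) or 6-day replicate 3 (0.30, adjusted p = 0.0732), and without control replicate 2 the 6-day change was 0.50 (adjusted p = 7.75e-05).

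ATP6V1B2, the B subunit of the sector that splits ATP, encoded on chromosome 8, was at 161, 147 and 151 CPM in the controls and 124, 125 and 136 at 2 days. It was at 111, 110.0 and 114 CPM at 4 days and 107, 102 and 97.8 at 6 days. The groups did not overlap, and each longer exposure had a lower range than the one before. ATP6V1B2 fell by 0.25 ± 0.07 (adjusted p = 0.00704), 0.46 ± 0.07 (adjusted p = 2.67e-05) and 0.58 ± 0.07 (adjusted p = 7.06e-07) at 2, 4 and 6 days.

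The A subunit that pairs with it, ATP6V1A, went the other way, from 125 ± 14.8 CPM in the controls to 145 ± 10.6, 152 ± 8.14 and 160.4 ± 8.83 (0.21, 0.28 and 0.36). ATP6V1H, which controls the assembled pump, rose from 58.2 ± 3.90 to 68.5 ± 5.82 CPM at 4 days and 68.2 ± 3.31 at 6 days (0.24 and 0.23). The 2-day ATP6V1A call was lost without control replicate 2 (0.12, adjusted p = 0.242) and without 7 others (control replicate 3, 2-day replicates 1 and 3, 4-day replicates 1 and 3, 6-day replicates 1 and 2; up to 0.24, adjusted p from 0.0536). Its 4-day call was lost without control replicate 2 (0.19, adjusted p = 0.068) or 4-day replicate 2 (0.24, adjusted p = 0.0617). For ATP6V1H the 4-day call was lost without any of 6 libraries (control replicates 1 and 3, 4-day replicates 1 and 3, 6-day replicates 1 and 2; adjusted p of 0.0518 to 0.173), and the 6-day call without any of 5 (control replicates 1 and 3, 4-day replicate 1, 6-day replicates 1 and 2; adjusted p of 0.0535 to 0.16).

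In the autophagy machinery the cargo receptor SQSTM1 was high at each exposure. SQSTM1 (chr5:179806398-179838078, plus strand) encodes p62, which brings ubiquitin-tagged cargo to LC3 and is itself degraded with it. It was at 61.0, 73.9 and 64.7 CPM in the controls, 105, 95.4 and 115 at 2 days, 93.3, 89.5 and 101 at 4 days and 101, 99.7 and 114 at 6 days. All 9 exposed libraries were above all controls. The log2 fold changes were 0.66 ± 0.09 (adjusted p = 1.61e-06), 0.51 ± 0.09 (adjusted p = 9.31e-05) and 0.66 ± 0.09 (adjusted p = 2.21e-06), and they were called under each of the 20 alternatives. Of its exon sequence 20.7% is shared with MRNIP on the other strand, whose own count was 2.05 to 3.77 CPM in the group means.

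The LC3 and GABARAP proteins, which coat the autophagosome, did not move together. MAP1LC3B (chr16:87383995-87404779, plus strand), the LC3 protein measured in most autophagy assays, was at 209.8, 208 and 192 CPM in the controls and 225, 189 and 211 at 2 days. It was at 253, 226 and 254 CPM at 4 days and 226, 233 and 207 at 6 days. Only the 4-day libraries cleared the control range, and only there was the test passed (0.27 ± 0.08, adjusted p = 0.011), against 0.04 ± 0.08 at 2 days (adjusted p = 0.738) and 0.13 ± 0.08 at 6 days (adjusted p = 0.214). That call was lost without control replicate 3 (0.23, adjusted p = 0.0675) or 4-day replicate 1 (0.24, adjusted p = 0.0527).

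GABARAPL1 (chr12:10212458-10223130, plus strand) was at 118, 116 and 113 CPM in the controls and 114, 120.5 and 113 at 2 days, so these groups overlapped. It was at 94.4, 87.3 and 80.3 CPM at 4 days and 85.6, 87.7 and 81.9 at 6 days, all below the other 6 libraries. GABARAPL1 fell by 0.41 ± 0.08 at 4 days (adjusted p = 0.000184) and by 0.44 ± 0.08 at 6 days (adjusted p = 4.77e-05). Its relative GABARAPL2 rose from 81.7 ± 1.41 CPM to 115 ± 12.2, 113 ± 6.37 and 99.1 ± 5.46 (0.49, 0.47 and 0.28, with adjusted p of 3.2e-05, 9.12e-05 and 0.00908).

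Of the conjugation machinery that attaches LC3 and GABARAP proteins to the membrane, ATG7 rose at 4 and 6 days and ATG12 at each exposure. ATG16L1 fell at each exposure, and ATG5 at 2 and 6 days. ATG7 (chr3:11272309-11557665, plus strand), the enzyme that starts both conjugation reactions, was at 21.6, 23.6 and 20.4 CPM in the controls and 23.1, 22.6 and 27.4 at 2 days. It was at 31.8, 29.5 and 26.0 CPM at 4 days and 37.8, 42.3 and 37.7 at 6 days. The 2-day libraries overlapped the controls, the 4-day libraries lay above them, and the 6-day libraries lay above those again. The log2 fold change was 0.16 ± 0.11 (adjusted p = 0.244), 0.41 ± 0.11 (adjusted p = 0.0035) and 0.84 ± 0.10 (adjusted p = 4.32e-07). VGLL4, which covers 18.1% of the ATG7 exon sequence on the other strand, was at 12.5 ± 0.531 CPM in the controls, 16.7 ± 1.02 at 2 days and 13.1 ± 0.894 at 6 days.

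ATG16L1 (chr2:233210051-233295674, plus strand), which places the conjugation complex on the membrane, was at 20.1, 19.7 and 19.0 CPM in the controls and 15.5, 14.7 and 15.1 at 2 days. It was at 15.4, 14.2 and 17.5 CPM at 4 days and 15.7, 16.2 and 14.8 at 6 days. All 9 exposed libraries lay below the controls, with little difference between exposures. ATG16L1 fell by 0.38 ± 0.11 (adjusted p = 0.00593), 0.32 ± 0.11 (adjusted p = 0.0209) and 0.34 ± 0.11 (adjusted p = 0.0132). The 4-day call was lost without control replicate 1 (-0.30, adjusted p = 0.0661), 4-day replicate 1 (-0.31, adjusted p = 0.0653) or 4-day replicate 2 (-0.25, adjusted p = 0.119), and the 6-day call without 6-day replicate 3 (-0.30, adjusted p = 0.056).

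ATG12 and ATG5, which are joined to each other before they bind ATG16L1, differed in direction. ATG12 rose from 79.0 ± 3.36 CPM to 99.5 ± 6.92, 103 ± 1.10 and 105 ± 5.47 (0.33, 0.39 and 0.41, with adjusted p of 0.00108, 0.000361 and 0.000121). ATG5 was at 68.1 ± 0.860 CPM in the controls, fell to 56.2 ± 3.20 at 2 days (-0.28 ± 0.08, adjusted p = 0.00836) and 59.0 ± 1.98 at 6 days (-0.21 ± 0.08, adjusted p = 0.044), and was at 59.6 ± 5.12 at 4 days (adjusted p = 0.072). BECN1 rose from 61.5 ± 4.48 to 79.4 ± 3.91 CPM at 2 days and 76.6 ± 2.92 at 4 days (0.37 and 0.32), and was at 70.7 ± 3.97 at 6 days (0.20 ± 0.08, adjusted p = 0.0502). ULK1, at 30.2 to 34.0 CPM in the group means, and WIPI1, a lipid-binding protein of the early autophagosome at 69.1 to 77.1 CPM, were not called at any exposure. The 2-day ATG5 call was lost without 2-day replicate 2 (-0.22, adjusted p = 0.0621), and the 6-day call without any of 9 libraries (all but 2-day replicate 3 and 4-day replicates 1 and 3), with changes of -0.23 to -0.18 and adjusted p of 0.0551 to 0.135. That 6-day call was kept under 4 of 20 alternatives and was also lost with DESeq2 (-0.20, adjusted p = 0.0573).

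Comparing exposures directly asks which members went on changing after 2 days. From 2 to 4 days 7 members rose and 6 fell, in a comparison in which 16.3% of all tested genes rose and 18.5% fell, so the members' shares of 18.4% and 15.8% lay close to those of all genes. Calls in either direction made up 34.8% of all tested genes, calls of at least 2-fold 7.22%, and groups without overlap 45.9%. CTSS rose by a further 1.98 ± 0.18 on the log2 scale (adjusted p = 4.23e-09), CTSL by 0.92 ± 0.09 (adjusted p = 9.05e-09) and CTSB by 0.51 ± 0.07 (adjusted p = 6.65e-06), and GLA (0.43), GLB1 (0.27), CD63 (0.26) and MAP1LC3B (0.23) also rose. MCOLN1 (-0.49), GABARAPL1 (-0.41), ATP6V0D1 (-0.31), CTSA (-0.28), NPC1 (-0.26) and ATP6V1B2 (-0.21) fell. For CTSL, GLA and GLB1 the 4-day libraries overlapped the controls. With scaling by library totals alone 11 members rose and 2 fell, and the share of higher genes among all genes called went from 46.9% to 61.1%.

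At 6 against 4 days only CTSS (0.53 ± 0.15, adjusted p = 0.0262) and ATG7 (0.43 ± 0.10, adjusted p = 0.0107) rose and LAMP1 (-0.32 ± 0.07, adjusted p = 0.00884) fell, beside 3.05% and 3.73% of all tested genes. Calls in either direction made up 6.78% of all tested genes, calls of at least 2-fold 0.676%, and groups without overlap 27.6%. The CTSS call was lost without 4-day replicate 1 (0.46, adjusted p = 0.144), 4-day replicate 3 (0.56, adjusted p = 0.0635), 6-day replicate 1 (0.57, adjusted p = 0.0607) or 6-day replicate 2 (0.40, adjusted p = 0.192). The ATG7 call was lost without 4-day replicate 3 (0.36, adjusted p = 0.0742) or 6-day replicate 2 (0.37, adjusted p = 0.0762). Scaling by library totals alone moved the share of higher genes among all called from 45% to 74.2% here, with 3 members higher and 1 lower.

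A single test for any difference among the 4 groups was passed by 30 of the 38 members (78.9%), beside 63.4% of all tested genes. By group mean, the 30 were highest in the controls in 8 cases, at 2 days in 10, at 4 days in 4 and at 6 days in 8. These shares of 26.7%, 33.3%, 13.3% and 26.7% stand beside 33.4%, 33.6%, 10.5% and 22.5% of all genes that passed the same test. CTSS differed most, with its highest group mean 9.88 times its lowest, followed by CTSL (1.98), ATG7 (1.79), CTSB (1.72) and ATP6V0D1 (1.68). The 8 that did not pass were CTSD, CTSK, LAMP2, NEU1, NPC2, ATP6V1H, ULK1 and WIPI1.

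Another 134 genes of lysosome and autophagy gave a wider view, and 130 of them passed the filter. They were listed by function, but with earlier results of these data known, so they are not an independent check on the members. At 2 days 53 rose and 24 fell, at 4 days 49 rose and 15 fell, and at 6 days 53 rose and 17 fell, with medians of 0.15, 0.19 and 0.14. The shares that rose were 40.8%, 37.7% and 40.8%, beside 23.8%, 18.8% and 22% of all tested genes, and the shares that fell were 18.5%, 11.5% and 13.1%, beside 23.4%, 17.7% and 21.7%. Hydrolases beyond the members (23 tested) rose in 11, 14 and 15 cases at 2, 4 and 6 days and fell in 5, 3 and 2. Proton pump subunits and accessory proteins (13 tested) rose in 9, 7 and 8 cases and fell in 1, 0 and 0. Genes of autophagosome formation (30 tested) had 8 risen and 8 fallen at 2 days, close to the shares of all genes there, 9 and 5 at 4 days and 9 and 8 at 6 days. Upstream regulators (23 tested) rose in 13, 7 and 8 cases and fell in 3, 1 and 2, and other proteases (7 tested) rose in 0, 2 and 2 and fell in 2, 2 and 1.

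Among genes that average at least 10 CPM in the higher group, the largest rises exceeded those of nearly all members and were present at 2 days. FUCA1, the lysosomal fucosidase and a known p53 target, was at 4.20, 3.41 and 2.91 CPM in the controls and 47.3, 43.4 and 44.6 at 2 days, and then at 20.9 ± 0.222 and 27.6 ± 3.62 at 4 and 6 days. Its log2 fold changes were 3.67 ± 0.13, 2.57 ± 0.14 and 2.96 ± 0.14. TP53INP1, a p53-induced protein that binds LC3, rose from 24.1 ± 4.84 to 186 ± 15.6 CPM at 2 days (2.94), and SESN1, a p53-induced inhibitor of nutrient signalling, from 7.74 ± 1.44 to 48.6 ± 2.56 (2.65). At 4 and 6 days TP53INP1 was at 98.5 ± 6.79 and 118 ± 13.1 CPM, and SESN1 at 31.4 ± 2.88 and 36.2 ± 3.59. All 3 thus had their highest level at 2 days. Of the 30 members that passed the test for any difference, 10 were also highest at 2 days, and 8, CTSS and CTSB among them, at 6 days.

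With the same limit of 10 CPM, the largest falls at 2 days were in ULK2, the relative of ULK1 (from 20.6 ± 1.29 to 8.79 ± 1.75 CPM, -1.24 ± 0.14), GALC, which degrades myelin lipids (from 17.9 ± 1.08 to 8.59 ± 0.215, -1.06 ± 0.13), and GUSB, beta-glucuronidase (from 61.1 ± 8.57 to 31.1 ± 5.63, -0.98 ± 0.12). ULK2 and GALC were not called at 4 or 6 days, and CTSL was not called at 4 days. PPT1, which removes fatty acids from proteins, fell from 191 ± 11.0 CPM to 116 ± 10.8 at 4 days and 96.4 ± 2.88 at 6 days (-0.72 and -0.99). ATG9A, the membrane carrier of the young autophagosome, fell from 36.1 ± 1.91 to 27.4 ± 3.21 and 22.7 ± 3.56 CPM (-0.40 and -0.67). CTSC, cathepsin C, fell from 129 ± 2.80 to 86.1 ± 2.31 CPM at 6 days (-0.58 ± 0.08).

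Since it is not known whether reads were counted by strand, it is also not known how reads of genes that overlap on opposite strands were assigned. Exons shared with another annotated gene were found for 18 of the 38 members, and the share of the member's exon length was largest for CTSD with an overlapping locus of the same strand (41.7%), WIPI1 with ARSG (24.3%), SQSTM1 with MRNIP (20.7%), ATG7 with VGLL4 (18.1%) and CTSA with NEURL2 (17.7%). NEURL2 rose from 0.528 ± 0.132 to 2.88 ± 0.988 CPM at 2 days. BECN1 shares 12.4% of its exon length with CNTD1 and 4.68% with PSME3, both on the other strand. PSME3 was at 159 ± 5.91 CPM in the controls and at 262 ± 3.57, 197 ± 12.2 and 183 ± 6.03 at 2, 4 and 6 days, a rise at each exposure, with the groups in the same order as for BECN1. The part of shared reads in any of these values was not tested. MAP1LC3B2, a near copy of MAP1LC3B elsewhere in the genome, was at 0.530 to 0.844 CPM in the group means. These values are uncertain for both partners of each pair.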

How the data were processed

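Messenger RNA of 12 AC16 libraries, 3 in each of 4 groups, was sequenced; per the labels' protocols, libraries were made with NEBNext Ultra RNA reagents. The authors deposited raw counts, 1 column per library, not normalized. Libraries were grouped by labelled exposure. The submitters' processing notes name fastp 0.23.2, Trimmomatic 0.38, STAR 2.7.8, HTSeq 0.13.5 and GRCh38.p13, with no roles, and the sources used here give no strand setting. Within each group no library was a copy of another by its counts, and libraries of different groups were not compared in this way.

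Tests used edgeR 4.0.16 in R 4.3.3: filterByExpr (minimum count 10, minimum total 15), TMM scaling, a single robust glmQLFit of 12 libraries with 4 group means (8 residual degrees of freedom; common BCV, the relative biological spread, 0.0887) and glmQLFTest for 5 comparisons and for any difference. Calls are at a Benjamini-Hochberg adjusted p under 0.05 over 17320 genes, with no minimum fold. The SE is the absolute log2 fold change divided by the square root of F. Positions, exon lengths and overlaps came from GENCODE 29 (GRCh38), and promoter windows from RefSeq (GRCh38.p14). RPKM used the union of all exons. Depth was 14835743 to 21226441 counts per library.

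The members and all gene lists were chosen with earlier results of these data known. Values in every library are given for TFEB, TFE3, SQSTM1, MAP1LC3B, GLB1 and the 3 largest rises and falls among called members in each comparison with the control. Of the other pathway genes, those named are the 3 largest rises and falls among called genes that average 10 CPM or more in the higher group; other genes are named as markers, overlaps or near copies, and some were picked after their values were seen. The alternatives tried were DESeq2 1.42.0, its size factors within edgeR, scaling by totals alone, a replicate block, fits of just the 2 groups compared, filters of none or 1 CPM in 3 libraries, and leaving out each library. A fit without both libraries that stood apart in mitochondrial share was chosen after seeing the data. The procedure was tested on simulated data.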

Additional observations from a re-analysis of the deposited data

Results flagged for a closer look

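Members whose response differed between lengths of exposure by a direct test of the difference are listed here with the log2 difference, from edgeR's quasi-likelihood test. At 4 against 2 days the difference was 1.98 for CTSS, 0.92 for CTSL, 0.51 for CTSB, 0.43 for GLA, 0.27 for GLB1, 0.26 for CD63 and 0.23 for MAP1LC3B. In the other direction it was -0.49 for MCOLN1, -0.41 for GABARAPL1, -0.31 for ATP6V0D1, -0.28 for CTSA, -0.26 for NPC1 and -0.21 for ATP6V1B2. At 6 against 4 days it was 0.53 for CTSS, 0.43 for ATG7 and -0.32 for LAMP1.

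CTSS and CTSB kept the direction they had against the control at 2 days and went further. CTSL, GLB1 and GLA had fallen at 2 days and were higher at 4 days, and CTSA and MCOLN1 had risen and were lower. The 4-day libraries of each of these genes overlapped the controls, with no call against them. CTSL was called lower than the controls again at 6 days (-0.27, adjusted p = 0.0105). At 4 against 2 days the calls of CD63, GLB1 and MAP1LC3B were each lost without 2-day replicate 2, 2-day replicate 3, 4-day replicate 1 or 4-day replicate 3, with adjusted p of 0.0662 to 0.11 for CD63, 0.0571 to 0.0885 for GLB1 and 0.0565 to 0.188 for MAP1LC3B. The NPC1 call was lost without the same 4 libraries (-0.26 to -0.19, adjusted p of 0.0643 to 0.161). That of ATP6V0D1 was lost without 2-day replicate 1 or 2 or 4-day replicate 1 or 2 (-0.32 to -0.24, adjusted p of 0.0649 to 0.135), and that of ATP6V1B2 without 2-day replicate 3 or any 4-day library (-0.21 to -0.16, adjusted p of 0.06 to 0.147). The MCOLN1 call was lost without 2-day replicate 2 or 3 or 4-day replicate 2 (-0.47 to -0.42, adjusted p of 0.051 to 0.0764).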

How the results depend on the processing

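Of 84 member changes called in the 5 comparisons, 50 were called under each of the 20 alternatives (14 of 25 at 2 days, 15 of 21 at 4 days, 15 of 22 at 6 days, 5 of 13 for 4 against 2 days and 1 of 3 for 6 against 4 days), and 0 reversed. Scaling by library totals alone gave 11 members higher and 2 lower at 4 against 2 days. At 6 against 4 days, fitting only the 2 groups gave 1837 genes called, against 1174, and 2 members lower, as did DESeq2 (2). Without control replicate 2 and 2-day replicate 3, 5 members were lower at 2 days, and at 6 against 4 days 2027 genes were called and 3 members were lower. Leaving out each library gave 572 to 1842 genes called at 6 against 4 days, the lowest without 4-day replicate 1 and the highest without control replicate 2, with 0 to 2 members higher (0 without 4-day replicate 3 or 6-day replicate 2) and 1 to 2 lower. At 4 against 2 days it gave 4 to 10 members higher (4 without 4-day replicate 1) and 3 to 8 lower (3 without 2-day replicate 2 or 3 or 4-day replicate 1 or 2). The counts over all genes moved too. Without 4-day replicate 1, 2277 genes rose and 2656 fell, and without control replicate 2, 3211 rose and 3467 fell. With all libraries 2828 rose and 3203 fell. The causes were not tested. Samples with the same replicate number did not deviate together (median correlation -0.003, lowest -0.17, highest 0.10, over 18 pairs), so the numbers are not taken as pairs. With the replicate block 13 members rose and 8 fell at 2 days, 16 and 4 at 4 days, and 13 and 7 at 6 days. It gave 8 and 5 at 4 against 2 days, and 2 and 1 at 6 against 4 days. Among all genes called with the block, the share higher was 50.6%, 51.7%, 50.5%, 46.6% and 46% in the same order. With 3 libraries a group and this spread, small changes can be missed, and a missing call does not show that a level stayed the same.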
